A study of Homo sapiens and Mus musculus with 81 samples.

Results

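The genes described here are 44 genes of the cell cycle and of DNA replication, followed through 4 liver systems in which small interfering RNAs (siRNAs) were applied. They were taken by gene symbol, with case ignored on the mouse array, and each gene was read from its brightest probe set. All 44 were found among the 17836 genes of the human array, 1 of them (SKA2) under an older symbol. On the mouse array 42 of the 44 were found among 21931 genes, and Ccnb1 and Ska2 were not found by symbol. By role they were 7 G1 to S cyclins, kinases and a phosphatase, 4 transcription factors (E2F1, E2F2, E2F3, FOXM1), 9 genes of origin licensing and the MCM helicase, 5 genes of nucleotide supply and the replication fork, 8 genes of G2 and mitotic entry, and 11 genes of the spindle checkpoint, kinetochore and cytokinesis.

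Cells enter S phase when cyclin D with CDK4 or CDK6, and then cyclin E with CDK2, phosphorylate the retinoblastoma proteins and release E2F factors, which switch on genes for licensing origins and copying DNA. A later set of genes, switched on in G2 through FOXM1 and MYB complexes, encodes cyclins A and B, the mitotic kinases and the spindle apparatus. Hepatocytes of an adult liver are mostly quiescent and hold both sets low, while liver cancer lines in culture divide.

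The study measured RNA on 81 microarrays, 56 human and 25 mouse, to look for effects of siRNAs beyond their targets, APOB (the apolipoprotein of low density lipoproteins) and RAD18 (a ubiquitin ligase of DNA damage tolerance). HUH7 and PLC/PRF/5, both human liver cancer lines, received 1 of 4 siRNAs named for human APOB (APOB-Hs1 to APOB-Hs4), 1 of 2 named for mouse Apob (Apob-Mm1 and Apob-Mm2), the RAD18 siRNA or a mock transfection, and the mouse hepatoma line Hepa1-6 received APOB-Hs1, APOB-Hs3, APOB-Hs4 or mock. All siRNAs went into cells at 10 nM with Lipofectamine RNAiMAX, and cells were collected at 6, 12, 24 and 48 h (HUH7, 32 arrays, and Hepa1-6, 16 arrays) or at 6, 12 and 48 h (PLC/PRF/5, 24 arrays), with 1 array for each treatment and time. Mouse livers were taken 3 d after 3 mg/kg of APOB-Hs1, APOB-Hs3 or APOB-Hs4 in lipid nanoparticles, with 3 livers per siRNA, 9 arrays, and no untreated liver among the samples. Each cell line is 1 line, so a test between lines concerns these lines.

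Values below are log2 intensities, and a difference is a difference of log2 values. With 1 array per treatment and time, the times stood in for replicates of a treatment, and the 8 treatments (4 in Hepa1-6) for replicates of a time. The labels do not say whether arrays came from separate cultures, so p-values measure the spread between these arrays, which may be technical. In the fits of treatment and time that spread also holds any change of an siRNA's effect with time. A gene was called when limma's adjusted p over all genes of the array was under 0.05. The mean over members moves with the share of dividing cells and with RNA per cell, and these cannot be told apart in bulk RNA.

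The arrays' median intensity ran from 31.75 to 35.39 in the human and from 19.73 to 22.55 in the mouse arrays. As a check of the labels, APOB lay below mock at the same time on all 40 arrays with the APOB-Hs siRNAs in cells, at -4.04 to -2.26 by 48 h. It lay below mock on 13 of 14 arrays with the Apob-Mm siRNAs, at -3.30 to -1.26 by 48 h. RAD18 lay below mock on all 7 arrays with its siRNA. Residual spread was widest on the 48 h arrays of APOB-Hs2 (SD 0.199) and APOB-Hs4 (0.186) in PLC/PRF/5. Of the hepatocyte markers, ALB was high in HUH7 (median 13.79) and low in PLC/PRF/5 (median 7.47). The medians of AFP, APOA1 and TTR were also lower in PLC/PRF/5. FGB (13.64 in HUH7, 13.42 in PLC/PRF/5) and TF (13.09 and 12.69) were high in both lines. SERPINA1 was higher in PLC/PRF/5 (13.75) than in HUH7 (13.46).

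Against mock, 15 calls among members were made in HUH7, 1 in PLC/PRF/5 and 4 in Hepa1-6. Of the 15 in HUH7, 13 were higher, namely CDC25A with 4 siRNAs, CCNE1 with 3, E2F2 with 2, and E2F1, E2F3, CDK2 and PCNA with 1 each. The lower calls were SKA2 with APOB-Hs2 in both human lines, CDK6 with APOB-Hs1 in HUH7, and in Hepa1-6 Ccnd1 with APOB-Hs1, Kif11 with APOB-Hs3, and Rrm2 and Cdk6 with APOB-Hs4. In HUH7, limma called 3 of 44 members with APOB-Hs1 (2.53% of all genes), 4 for APOB-Hs3 (2.22%), 7 for APOB-Hs2 (2.42%) and 1 for RAD18 (0.897%). It called 0 with APOB-Hs4 (1.63% of all genes), where 7 members and 16% of all genes had an unadjusted p under 0.05. It called 0 with Apob-Mm2 (1.29%; unadjusted 9 members and 12.9% of all genes) and 0 with Apob-Mm1 (0.0%; unadjusted 0 members and 3.54%). The siRNAs of a line share its mock arrays, so their differences are not independent of each other. Without the 24 h arrays, which leaves 3 times, limma called 0 of the 15 (34 higher and 5 lower at an unadjusted p under 0.05). Without 48 h it called 1 higher and 2 lower, without 12 h 5 higher and 2 lower, and without 6 h 12 higher and 6 lower.

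SKA2 encodes a subunit of the SKA complex, which holds kinetochores to spindle microtubules. With APOB-Hs2 in HUH7 it read 10.78, 9.50, 9.03 and 8.85 at 6, 12, 24 and 48 h, against 10.98, 10.77, 10.83 and 10.97 in mock. The APOB-Hs2 arrays lay below every mock array from 12 h on, and the 6 h array lay among them. The difference over the times was -1.35 (SE 0.194, adjusted p = 0.000226, limma), at -1.20 (0.0612) without 24 h. It widened by 0.63 for each doubling of time (slope -0.63, SE 0.065, adjusted p = 3.24e-05). In PLC/PRF/5, SKA2 with APOB-Hs2 read 8.92, 7.51 and 6.35 at 6, 12 and 48 h, against 9.59, 9.56 and 9.65 in mock. The groups did not overlap, and the difference was -2.01 (SE 0.345, adjusted p = 0.00709), 1 call among 44 members beside 0.364% of all genes. Without 12 h it was -1.99 (adjusted p = 0.934) and without 48 h -1.36 (0.126), with 2 times left in each. Its slope in PLC/PRF/5 was -0.84 per doubling (adjusted p = 0.0002). The difference of this effect between the lines, HUH7 minus PLC/PRF/5, was 0.81 (SE 0.448) and did not pass (limma interaction, adjusted p = 0.999). Whether APOB-Hs2 pairs with the SKA2 transcript was not tested, as siRNA sequences were not analysed here.

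**Figure D1:**
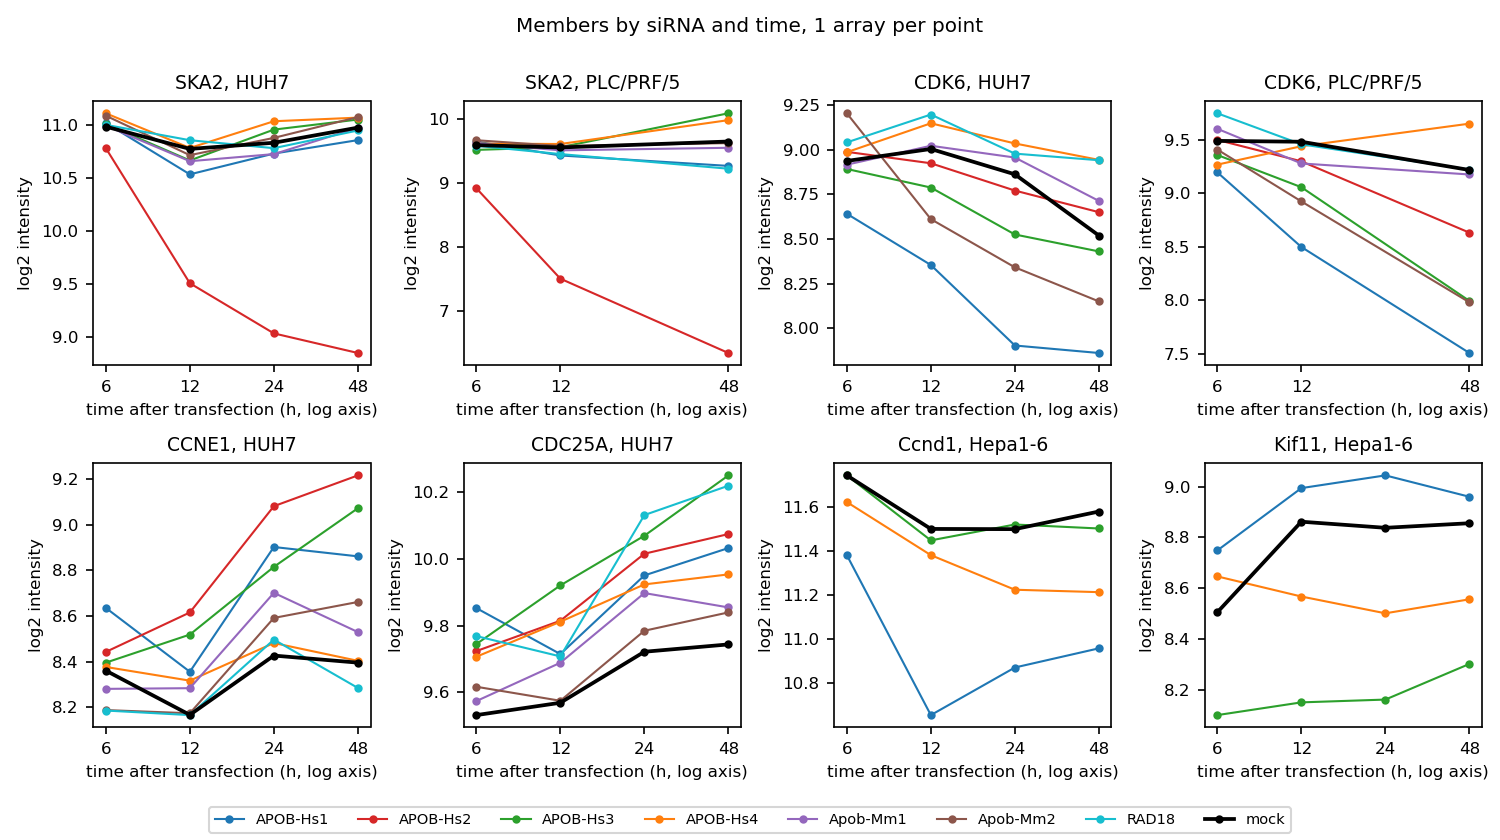
Log2 intensity of SKA2 and CDK6 in HUH7 and PLC/PRF/5, CCNE1 and CDC25A in HUH7, and Ccnd1 and Kif11 in Hepa1-6, against time after transfection on a log axis, 1 array per point, coloured by siRNA with mock in black. SKA2 with APOB-Hs2 ends at 8.85 in HUH7 and 6.35 in PLC/PRF/5, CDK6 with APOB-Hs1 runs below the other arrays in both human lines, and mock is the lowest of the CDC25A lines at each time.

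CDK6, a kinase partner of cyclin D, read 8.64, 8.36, 7.90 and 7.86 with APOB-Hs1 in HUH7 over 6 to 48 h, against 8.94, 9.01, 8.86 and 8.52 in mock. Each APOB-Hs1 array was lower than mock at its own time, and the ranges overlapped through the 6 h array. The difference was -0.64 (SE 0.113, adjusted p = 0.000912), at -0.53 (0.0974) without 24 h. CDK6 had 4 probe sets, of which 1 went the other way (0.02) while the lowest of the others read -0.71. CDK6 with APOB-Hs1 in PLC/PRF/5 read 9.19, 8.50 and 7.51, against 9.49, 9.48 and 9.22 in mock, and the difference of -0.996 (SE 0.257) did not pass over all genes (adjusted p = 0.108). Its slope did pass, at -0.46 per doubling of time (SE 0.062, adjusted p = 0.00497). CDK6 also had negative slopes in PLC/PRF/5 with APOB-Hs3 (-0.37, adjusted p = 0.0138) and Apob-Mm2 (-0.38, 0.0118), whose 48 h arrays read 7.99 and 7.98. Over the mean of all its probe sets these were -0.12 (0.198) and -0.18 (0.0535). In Hepa1-6 Cdk6 lay 0.38 below mock with APOB-Hs4 (-0.38, SE 0.084, adjusted p = 0.0438), at 9.52, 9.24, 8.79 and 8.78, against 9.56, 9.53, 9.46 and 9.31 in mock, and the groups overlapped. That call was lost without 12, 24 or 48 h (adjusted p = 0.195, 0.404 and 0.293), against the mean of the other siRNAs (-0.24, 0.0812) and with all probe sets averaged (-0.32, 0.0605). With APOB-Hs1 in Hepa1-6, Cdk6 was at -0.22 (adjusted p = 0.312).

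CCNE1, cyclin E1, the partner of CDK2 at the start of S phase, lay above mock in HUH7 with 3 siRNAs. With APOB-Hs2 it read 8.44, 8.62, 9.08 and 9.22 over 6 to 48 h, and with mock 8.36, 8.17, 8.43 and 8.40. All APOB-Hs2 arrays lay above all mock arrays, and the difference was 0.50 (SE 0.0928, adjusted p = 0.00315), at 0.45 (0.178) without 24 h. With APOB-Hs3 the difference was 0.36 (adjusted p = 0.0327) and with APOB-Hs1 0.35 (0.0359), both lost without 12, 24 or 48 h (APOB-Hs3 0.26 to 0.37, APOB-Hs1 0.31 to 0.41). Against the mean of the other siRNAs they were 0.19 (0.157) and 0.18 (0.163). CCNE1 in PLC/PRF/5 stood at 0.48 with APOB-Hs1 (adjusted p = 0.258), 0.28 with APOB-Hs2 (0.637) and 0.23 with APOB-Hs3 (0.83) from mock, and in Hepa1-6 Ccne1 at 0.37 with APOB-Hs3 (0.285) and 0.23 with APOB-Hs1 (0.466).

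CDC25A, the phosphatase that removes inhibitory phosphates from CDK2, lay above mock in HUH7 with 4 siRNAs. With APOB-Hs3 it read 9.75, 9.92, 10.07 and 10.25, and with mock 9.53, 9.57, 9.72 and 9.74. The groups did not overlap, though by little, and the difference was 0.36 (SE 0.0566, adjusted p = 0.000633). It was 0.32 with RAD18 (adjusted p = 0.00213), 0.27 with APOB-Hs2 (0.00882) and 0.25 with APOB-Hs1 (0.0127), with overlapping arrays in each. The mock array had the lowest CDC25A of the 8 arrays at each of the 4 times. Against the mean of the other siRNAs, CDC25A with APOB-Hs1 was at 0.03 (adjusted p = 0.813), with APOB-Hs2 at 0.05 (0.705) and with RAD18 at 0.11 (0.222). All 4 calls were lost without 24 h or 48 h (values 0.23 to 0.36). The second CDC25A probe set gave 0.24 to 0.36 in the same comparisons.

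Of the E2F factors, which drive S phase genes, E2F3 with APOB-Hs2 in HUH7 read 8.19, 8.34, 8.45 and 8.27, against 7.67, 7.95, 8.03 and 7.91 in mock. The groups did not overlap and the difference was 0.42 (SE 0.108, adjusted p = 0.031). E2F2 was higher with APOB-Hs3 (0.47, adjusted p = 0.00147) and APOB-Hs2 (0.31, 0.0405), and E2F1 with APOB-Hs2 (0.25, 0.0417). CDK2 itself, named after its values were seen, was 0.31 above mock with APOB-Hs2 (adjusted p = 0.0235), with no overlap between 9.34, 9.35, 9.48 and 9.51 with the siRNA and 9.03, 8.97, 9.21 and 9.24 in mock. PCNA, the sliding clamp of replication, was 0.21 above mock with APOB-Hs3 (adjusted p = 0.031), at 12.41, 12.32, 12.72 and 12.67, against 12.29, 12.05, 12.40 and 12.54, and its arrays overlapped. The calls for E2F1, E2F3 and PCNA were lost without 12, 24 or 48 h (adjusted p = 0.133 to 0.497). E2F2 lost its call with APOB-Hs2 on leaving out any time (0.0653 to 0.469), and with APOB-Hs3 without 24 h (0.159) or 48 h (0.0562). Against the mean of the other siRNAs, E2F1 (0.16, 0.121) and E2F2 (0.19, 0.114) with APOB-Hs2 did not pass. E2F3 with APOB-Hs2 in PLC/PRF/5 stood at 0.27 from mock (adjusted p = 0.493).

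In Hepa1-6, limma called 1 of 42 members with APOB-Hs1 (0.766% of all genes), 1 with APOB-Hs3 (0.588%) and 2 with APOB-Hs4 (1.19%), and all 4 were lower. Ccnd1, cyclin D1, the growth factor sensor of G1, read 11.38, 10.66, 10.87 and 10.96 with APOB-Hs1 and 11.74, 11.50, 11.50 and 11.58 with mock. The groups did not overlap, and the difference was -0.61 (SE 0.0802, adjusted p = 0.00122), with the other probe set at -0.64. In human cells CCND1 with APOB-Hs1 was at -0.10 in HUH7 (adjusted p = 0.522) and -0.21 in PLC/PRF/5 (0.786). Kif11, the kinesin that pushes spindle poles apart, read 8.10, 8.15, 8.16 and 8.30 with APOB-Hs3 and 8.51, 8.86, 8.84 and 8.86 with mock. Again no array overlapped, and the difference was -0.59 (SE 0.0779, adjusted p = 0.00257), with the other probe set at -0.68. It was -0.54 (0.123) without 12 h and -0.56 (0.0809) without 24 h. KIF11 with APOB-Hs3 was at 0.02 in HUH7 (adjusted p = 0.94) and -0.09 in PLC/PRF/5 (0.974). Rrm2, the small subunit of ribonucleotide reductase, which makes deoxynucleotides, read 10.00, 9.56, 9.75 and 9.79 with APOB-Hs4 and 10.15, 10.31, 10.25 and 10.36 with mock. The groups did not overlap, the difference was -0.49 (SE 0.102, adjusted p = 0.0296), and the call was lost without 12, 24 or 48 h (-0.41, -0.49 and -0.47, adjusted p = 0.204 to 0.287).

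The array on which the members lay furthest below mock was that of APOB-Hs4 at 48 h in PLC/PRF/5. The mean log2 over the 44 members was 9.83, 9.90 and 9.18 at 6, 12 and 48 h with APOB-Hs4, against 9.86, 9.96 and 9.98 in mock. At 48 h 41 of the 44 lay below mock, with a median difference of -0.78 (0.02 over all genes), and 38 (86.4%) were the lowest of the 8 arrays of that time, beside 15.5% of all genes. The other siRNA arrays of 48 h had member means of 9.81 to 10.07. All of this rests on 1 array, the APOB-Hs4 array of 48 h.

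Across the 3 times, APOB-Hs4 minus mock gave 0 calls among members (0.202% of all genes), with a median of -0.29, and 21 members and 9.87% of all genes had an unadjusted p under 0.05. As a slope per doubling of time, 32 of 44 members fell and 1 rose, where 3.54% of all genes fell and 6.17% rose (9.71% in all). Without the APOB-Hs4 array of 48 h limma called 0 slopes (0 lower and 1 higher at an unadjusted p under 0.05). By role, slopes fell for 10 of 11 spindle genes, 7 of 8 G2 genes, 4 of 5 nucleotide and fork genes, 7 of 9 licensing genes, 3 of 7 G1 to S genes and 1 of 4 transcription factor genes. CCNE2, cyclin E2, read 7.91, 7.41 and 5.81 with APOB-Hs4 and 8.11, 8.09 and 7.67 with mock, a slope of -0.56 (SE 0.086, adjusted p = 0.005). CCNA2, cyclin A2 of S phase and G2, read 9.50, 9.67 and 8.31 with APOB-Hs4 and 9.54, 9.83 and 9.83 with mock (slope -0.52, adjusted p = 0.0044). BIRC5, survivin of the chromosomal passenger complex, read 10.56, 10.72 and 9.37, against 10.60, 10.69 and 10.78 (slope -0.49, adjusted p = 0.0053). BIRC5 lay near mock at 12 h, while CCNA2 and CCNE2 with APOB-Hs4 were already the lowest of the 8 arrays at that time, and all 3 gaps were widest at 48 h.

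TYMS, the thymidylate synthase, read 12.29, 12.24 and 10.96 with APOB-Hs4, against 12.30, 12.49 and 12.40 in mock (slope -0.49, adjusted p = 0.0026). The proliferation marker MKI67 read 8.67, 8.99 and 7.93, against 8.98, 9.18 and 9.37 (slope -0.41, adjusted p = 0.0194). CCNB1, cyclin B1 of mitotic entry, read 11.15, 11.31 and 10.72, against 11.13, 11.40 and 11.49 (slope -0.27, adjusted p = 0.0098). In each of these the gap to mock was widest at 48 h. Without the 48 h array of APOB-Hs4 the MKI67 slope was 0.16 (adjusted p = 0.846). PCNA (slope -0.28, adjusted p = 0.0175) and CCND1 (-0.23, 0.0264) also fell. E2F1 (-0.15, 0.189), E2F3 (-0.08, 0.441), CDC25A (-0.26, 0.058) and SKA2 (0.11, 0.451) did not pass. CDK6 was the 1 member that rose (0.22, 0.0472), at 9.27, 9.44 and 9.65 with APOB-Hs4, and this call was lost with quantile normalization, with all probe sets averaged and without the 48 h array. The hepatocyte marker sum on the APOB-Hs4 arrays ran from 34460 to 37910, and on the mock arrays from 34780 to 36300.

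Smaller leans were seen on several arrays, in both directions. In PLC/PRF/5 with APOB-Hs3 at 48 h 23 members (52.3%) were the highest of 8 arrays, beside 12.3% of all genes. In HUH7 at 24 h 17 (38.6%) were the highest with APOB-Hs2, beside 12.7%, and 16 (36.4%) with APOB-Hs3, beside 13.4%. Mock itself was the lowest for 19 of 42 (45.2%) at 6 h in Hepa1-6, beside 28.6%. Other arrays leaned below mock, with APOB-Hs4 and with other siRNAs. At 48 h in HUH7 the members' mean was 10.00 with APOB-Hs4 and 10.13 with mock. The median difference was -0.14, and 23 (52.3%) were the lowest of 8 arrays, beside 13.9% of all genes. With Apob-Mm2 at 24 h in HUH7 the median was -0.19, 35 of 44 lay below mock and 20 (45.5%) were the lowest, beside 15.4% of all genes. With APOB-Hs1 at 12 h in HUH7 the median was -0.09 and 20 (45.5%) were the lowest, beside 25.0%. In Hepa1-6 the APOB-Hs4 mean at 48 h was 9.36, against 9.48 with mock, the median was -0.11, and 18 of 42 (42.9%) were the lowest of 4 arrays, beside 27.2% of all genes. With APOB-Hs1 at 12 h in Hepa1-6 the median was -0.05 and 23 (54.8%) were the lowest, beside 25.4%. Neither APOB-Hs4 slope in these lines passed for any member (HUH7 0.336% of all genes, unadjusted 11 members and 10.4% of all genes, and Hepa1-6 0.0%, unadjusted 8 members and 11.1%). The interaction of APOB-Hs4 with line (HUH7 minus PLC/PRF/5, over 6, 12 and 48 h) gave 0 calls among members (0.00561% of all genes), with 10 members and 6.91% of all genes at an unadjusted p under 0.05.

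**Figure D2:**
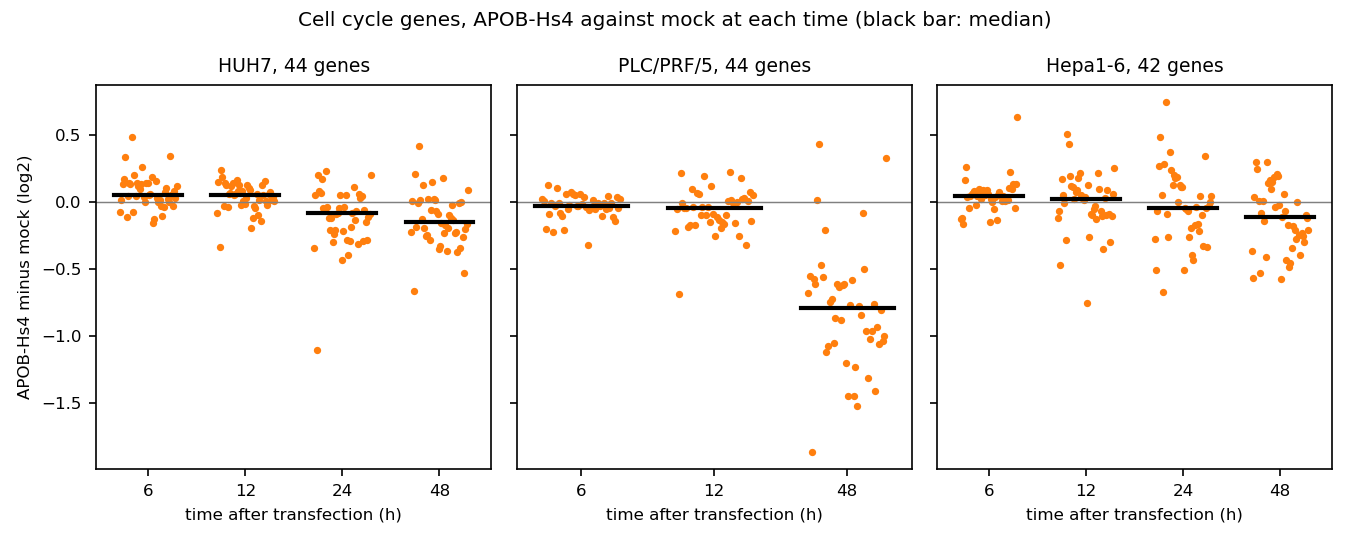
APOB-Hs4 minus mock (log2) at each time, 1 point per gene and a black bar for the median, in HUH7 and PLC/PRF/5 (44 genes each) and Hepa1-6 (42 genes). The median is -0.78 at 48 h in PLC/PRF/5, -0.14 in HUH7 and -0.11 in Hepa1-6.

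The other genes of the pathway, 107 of 109 listed companions found on the human array, were counted in the same contrast. With APOB-Hs4 in PLC/PRF/5 the slopes of 57 of the 107 fell and 1 rose, where 3.54% of all genes fell and 6.17% rose. These slopes use the same APOB-Hs4 array of 48 h as the members' slopes, so they are not independent of them. Companion slopes without that array are not given here. Among mitotic genes 32 of 41 fell, led by CENPF (-0.61), NUSAP1 (-0.51) and SKA3 (-0.44), and among replication genes 14 of 31, led by RFC5 (-0.41), GINS2 (-0.37) and MCM10 (-0.35). Among E2F and MYB factors 4 of 10 fell, among cyclins and kinases 5 of 15, and among inhibitors and pocket proteins 2 of 10, while CDKN2D, an inhibitor of CDK4 and CDK6, rose (0.36, adjusted p = 0.00336). CENPF, a kinetochore protein made in G2, was below mock with APOB-Hs4 over the times in both human lines (PLC/PRF/5 -1.27, adjusted p = 0.0335, and HUH7 -0.55, 0.0113).

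Smaller groups of slopes passed with other siRNAs in PLC/PRF/5. With APOB-Hs2, where 9.05% of all genes passed, SKA2, CCNE2 (-0.35, adjusted p = 0.027) and the checkpoint gene MAD2L1 (-0.24, 0.0296) fell and the centromere histone CENPA rose (0.27, 0.0368). Without the 48 h arrays of APOB-Hs2 and APOB-Hs4 the slopes of CCNE2 (-0.11, 0.918), MAD2L1 (-0.04, 0.944) and CENPA (0.19, 0.729) did not pass. With all arrays kept, CCNE2 (-0.19, 0.0798) and MAD2L1 (-0.12, 0.107) did not pass against the mean of the other siRNAs. Nor did CENPA with quantile normalization (0.26, 0.0507). With APOB-Hs1 (1.69% of all genes) MKI67 fell (-0.52, adjusted p = 0.0183) beside CDK6. Over the mean of its probe sets the MKI67 slope did not pass (-0.38, 0.0544). MKI67 read 7.84 on the APOB-Hs1 array of 48 h, below the 7.93 with APOB-Hs4. With APOB-Hs3 (2.51%) CCND1 rose (0.25, 0.0441), at 10.28, 10.23 and 11.24 with the siRNA and 10.09, 10.08 and 10.35 with mock. With Apob-Mm2 (3.45%) RRM2 fell (-0.33, 0.0118) beside CDK6. Its mean over probe sets did not pass (-0.13, 0.14), but that mean includes probe sets that the platform names C2orf48, which read near 3.01. Apob-Mm1 (0.00561%) and RAD18 (0.135%) gave 0 slopes, with 2 members and 3.92% of all genes unadjusted for Apob-Mm1 and 3 members and 9.92% for RAD18. In HUH7 besides SKA2 the slope of CCNE1 with APOB-Hs2 passed (0.24, SE 0.052, adjusted p = 0.0262, where 1.56% of all genes passed), and it was lost on leaving out any of the 4 times (adjusted p = 0.0504 to 0.682). The slopes of the other HUH7 siRNAs gave 0 calls with APOB-Hs1 (0.028% of all genes, unadjusted 1 member and 7.6%), APOB-Hs3 (1.79%, 10 members and 12.7%), Apob-Mm1 (0.0%, 1 and 3.16%), Apob-Mm2 (2.07%, 8 and 14.6%) and RAD18 (0.0224%, 5 and 7.39%). Hepa1-6 slopes gave 0 with APOB-Hs1 (0.0%, unadjusted 2 members and 6.19% of all genes) and APOB-Hs3 (0.0%, 0 and 6.56%). As siRNA minus mock in PLC/PRF/5, limma called 0 members with APOB-Hs1 (0.6% of all genes, unadjusted 4 members and 8.59%), APOB-Hs3 (0.292%, 4 and 7.44%), Apob-Mm1 (0.0%, 0 and 1.97%), Apob-Mm2 (0.135%, 3 and 8.35%) and RAD18 (0.235%, 2 and 6.39%).

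In HUH7 more members were called between times than with any siRNA against mock. The same held over all genes, and a time has 8 arrays there where a treatment has 4. Between 6 and 12 h 17 of 44 fell and 2 rose (18.6% of all genes called, with 11.0% falling). Between 12 and 24 h 21 rose and 4 fell (12.8%, with 7.71% of all genes rising). By role, 8 of 9 licensing genes, 6 of 7 G1 to S genes and 4 of 5 nucleotide and fork genes rose. So did E2F1 and E2F2, against 0 of 8 G2 genes and 1 of 11 spindle genes. Of the G1 to S genes, CCND1 did not pass without the mock arrays (limma, adjusted p = 0.0604). Between 24 and 48 h 17 rose and 0 fell (12.4% of all genes called, with 8.1% rising; 1 member lower unadjusted, where 26.0% of all genes moved either way), and 7 of 8 G2 genes were among them, with 4 of 11 spindle, 4 of 9 licensing, 2 of 4 transcription factor, 0 of 5 nucleotide and 0 of 7 G1 to S genes. From 6 to 48 h 22 rose and 2 fell (29.5%, with 16.5% rising). The labels do not say whether the arrays of a time share a harvest, and time and harvest then cannot be told apart.

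The licensing gene MCM3, a subunit of the replicative helicase, had a lowest, median and highest of 10.36, 10.42 and 10.48 at 6 h, 10.26, 10.42 and 10.56 at 12 h, 10.45, 10.74 and 10.88 at 24 h, and 10.60, 10.87 and 11.13 at 48 h (8 arrays each). No array of 48 h overlapped those of 6 h, and the change was 0.45 (SE 0.0522, adjusted p = 1.62e-07). E2F2 had medians of 6.93, 6.77, 7.11 and 7.37 and rose by 0.48 from 6 to 48 h (SE 0.0586, adjusted p = 3.36e-07), and its highest array of 6 h (7.18) overlapped the lowest of 48 h (7.14). CCNE1 (0.32), CDC25A (0.31), E2F1 (0.27) and CDC6, the loader of MCM (0.27), completed the 6 largest rises from 6 to 48 h. PCNA (0.17, adjusted p = 0.000825), CCND1 (0.15, 0.0091) and CCNB1 (0.12, 0.0136) rose by less. E2F3 (-0.05, 0.659) and SKA2 (-0.27, 0.147) did not pass. The 2 that fell were CDK6 (-0.42, adjusted p = 0.000149) and MKI67 (-0.20, 0.0239), and MKI67 lost its call without the mock arrays or with its probe sets averaged.

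The steps had different members at their heads. From 6 to 12 h CCNE2 fell by 0.49 (SE 0.124, adjusted p = 0.0064), SKA2 by 0.44, MKI67 by 0.30, MCM2 by 0.29 and PCNA by 0.23, and the checkpoint kinase BUB1 (0.23) and CDC25B, the phosphatase that starts CDK1 (0.16), rose. From 12 to 24 h CCNE2 (0.56, adjusted p = 0.00295), E2F2 (0.39), E2F1 (0.39), PCNA (0.36), CCNE1 (0.36) and MCM4 (0.35) rose, while CDC25B (-0.30), CDC20, the activator of the anaphase promoting complex (-0.27), CCNB1 (-0.15) and BUB1 (-0.14) fell. From 24 to 48 h BIRC5 (0.29, adjusted p = 0.00174), CCNB2 (0.28, 0.000176), E2F2 (0.26), CCNA2 (0.25), PLK1, the polo kinase of mitotic entry (0.24), and CCNB1 (0.23) rose. CCNB2, cyclin B2, had medians of 10.32, 10.32, 10.28 and 10.58 at 6, 12, 24 and 48 h, and its lowest array of 48 h (10.35) overlapped the highest of 24 h (10.38). Of the companions, 18 of 31 replication genes rose from 12 to 24 h, led by RFC3 (0.57), GINS3 (0.38) and GINS2 (0.37), beside 8 of 41 mitotic genes, of which 5 others fell. From 24 to 48 h 20 of 41 mitotic genes rose, led by ESPL1 (0.32), KIF20A (0.31) and KIF14 (0.30), beside 7 of 31 replication genes, of which 1 other fell.

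**Figure D3:**
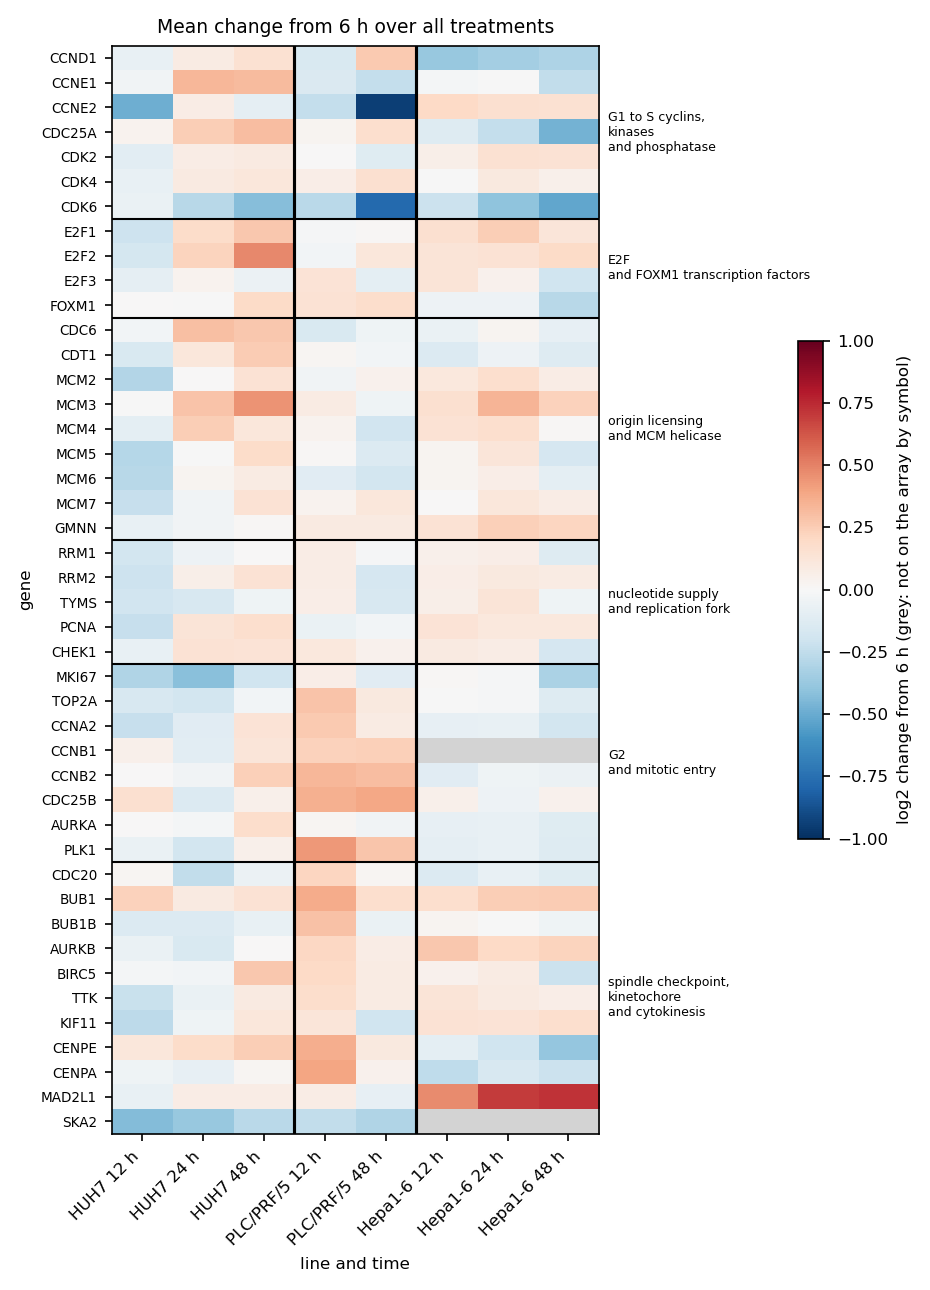
Mean log2 change from 6 h over all treatments for each gene (rows, grouped by role) at each later time in HUH7, PLC/PRF/5 and Hepa1-6 (columns), on a colour scale of -1 to 1, with grey for the genes not on the mouse array by symbol. MCM3 reaches 0.45 and E2F2 0.48 in HUH7 at 48 h, CCNE2 reaches -0.94 in PLC/PRF/5 and Mad2l1 0.72 in Hepa1-6.

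The promoters of MCM3 and E2F2, which had the largest rises from 6 to 48 h in HUH7, are shown as examples. Beside them are those of CCNB2 and PLK1, G2 genes that rose from 24 to 48 h. E2F2 rose in that step too, and whether promoter sequence bears on the times of change was not tested. Sequences are the 250 bases upstream of the gene start from RefSeq (GRCh38.p14), 5′ to 3′ along the gene's strand, with matches in capitals to the E2F motif TTTNNCGC, the CCAAT box CCAAT and the cell cycle homology region (CHR) TTTGAA, on either strand. MCM3 is at chr6:52284743-52284992 (minus strand), E2F2 at chr1:23531234-23531483 (minus), CCNB2 at chr15:59104896-59105145 (plus) and PLK1 at chr16:23678639-23678888 (plus). The last capitals of MCM3 begin a match that runs past the start, and 2 of the E2F2 matches overlap.
MCM3: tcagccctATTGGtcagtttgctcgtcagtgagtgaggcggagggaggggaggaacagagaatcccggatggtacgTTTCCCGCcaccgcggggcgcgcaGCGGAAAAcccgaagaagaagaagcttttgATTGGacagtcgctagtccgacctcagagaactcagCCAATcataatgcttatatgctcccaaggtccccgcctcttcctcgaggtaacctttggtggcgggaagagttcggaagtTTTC
E2F2: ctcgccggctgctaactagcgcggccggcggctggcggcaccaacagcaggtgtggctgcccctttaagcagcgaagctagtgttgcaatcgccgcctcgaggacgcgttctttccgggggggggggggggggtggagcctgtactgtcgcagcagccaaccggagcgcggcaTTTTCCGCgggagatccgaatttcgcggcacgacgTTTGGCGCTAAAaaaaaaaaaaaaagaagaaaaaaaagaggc
CCNB2: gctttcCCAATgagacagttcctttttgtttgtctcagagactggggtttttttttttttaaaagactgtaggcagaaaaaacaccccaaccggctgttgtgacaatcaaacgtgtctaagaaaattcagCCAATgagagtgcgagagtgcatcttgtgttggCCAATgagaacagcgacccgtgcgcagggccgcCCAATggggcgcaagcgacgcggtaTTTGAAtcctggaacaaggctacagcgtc
PLK1: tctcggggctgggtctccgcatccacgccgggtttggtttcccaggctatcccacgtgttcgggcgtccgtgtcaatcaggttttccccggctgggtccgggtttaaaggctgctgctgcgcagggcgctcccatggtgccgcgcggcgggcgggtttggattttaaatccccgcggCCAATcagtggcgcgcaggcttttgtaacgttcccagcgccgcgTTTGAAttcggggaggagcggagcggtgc

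The search covered the 250 bases before and 50 after each start, and 35 of the 44 genes had an entry. The E2F motif was in 7 of 7 licensing genes, 3 of 3 transcription factor genes, 2 of 5 nucleotide and fork genes, 1 of 4 G1 to S genes, 0 of 7 G2 genes and 1 of 9 spindle genes, and in 14 of 35 members (40.0%), beside 8.2% of all 27305 promoters. The CHR letters were in 4 of 7 G2 and 5 of 9 spindle genes, and in 0 of 7 licensing and 0 of 4 G1 to S genes, 11 of 35 members in all (31.4%), beside 18.2% of all promoters. The CCAAT letters were in 7 of 7 G2 genes and 26 of 35 members (74.3%), beside 39.7%. These are matches of letters, not binding sites.

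In PLC/PRF/5 fewer members changed with time, and the counts depended on the APOB-Hs4 array of 48 h. From 6 to 12 h 5 of 44 rose and 0 fell (0 unadjusted, where 18.7% of all genes moved either way), all G2 or spindle genes (3.5% of all genes called): PLK1 (0.44), BUB1 (0.37), CENPE, the kinesin of kinetochores (0.36), CDC25B (0.36) and CCNB2 (0.33). With quantile normalization BUB1 (adjusted p = 0.0878), CCNB2 (0.141) and CENPE (0.0516) did not pass, and without the mock arrays BUB1 (0.0826) and CCNB2 (0.113) did not. From 6 to 48 h 5 rose and 2 fell (18.7%), and without that array 19 rose. The 5 were CDC25B (0.38, SE 0.0642, adjusted p = 0.000283), CCNB2 (0.31), PLK1 (0.28), CCNB1 (0.24) and CDK4 (0.16), of which PLK1 (0.0649) and CCNB1 (0.0816) did not pass with quantile normalization, nor PLK1 (0.0811), CCNB1 (0.0989) and CCNB2 (0.0543) without the mock arrays. CCNE2 fell (-0.94, SE 0.146, adjusted p = 0.000133), with medians of 8.04, 7.88 and 7.42 at 6, 12 and 48 h, and CDK6 fell (-0.77, 0.00164). From 12 to 48 h 6 fell (CCNE2, CDK6, BUB1B, KIF11, CENPE, E2F3, at -0.71 to -0.24) and CCND1 rose (0.41, adjusted p = 0.00967) (13.0%). CENPE (0.0578) and E2F3 (0.0837) did not pass with quantile normalization, nor CDK6 without the mock arrays (0.0549). Without that array 14 rose from 6 to 12 h and 7 from 12 to 48 h.

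In Hepa1-6 the changes were spread over roles, and few passed within a single step. From 6 to 48 h 4 of 42 rose and 6 fell (17.2% of all genes called). Mad2l1, a spindle checkpoint gene, had a lowest, median and highest of 8.75, 9.01 and 9.56 at 6 h and 9.65, 9.79 and 10.00 at 48 h (4 arrays each), and rose by 0.72 (SE 0.143, adjusted p = 0.00251). Bub1 (0.25), Mcm3 (0.23) and Gmnn, the inhibitor of re-licensing (0.21), also rose, and these 3 did not pass without the mock arrays (adjusted p = 0.114, 0.0529 and 0.148). Cdk6 (-0.52), Cdc25a (-0.47, adjusted p = 0.00011), Cenpe (-0.39), Mki67 (-0.32), Ccnd1 (-0.31) and Cenpa (-0.22) fell, and the other Cenpe probe sets went the other way (0.11 to 0.38). Cenpa did not pass without the mock arrays (0.101), nor Ccnd1 with its probe sets averaged (0.0597). From 6 to 12 h Ccnd1 fell (-0.38, adjusted p = 0.0462, 0.775% of all genes called), and from 24 to 48 h Mcm5 (-0.29) and Chek1 (-0.25) fell (3.67%), and without the mock arrays none of these 3 calls passed (Ccnd1 0.161, Mcm5 0.0843, Chek1 0.181). From 12 to 24 h 0 passed (0.511%, unadjusted 2 members and 10.3% of all genes).

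The course from 6 to 48 h differed between the human lines for 8 of 44 members (limma interaction, 11.7% of all genes called). The difference of the 2 changes, HUH7 minus PLC/PRF/5, was positive for CCNE2 (0.86, SE 0.197, adjusted p = 0.0029), CCNE1 (0.56), MCM3 (0.49), E2F2 (0.37), MCM5 (0.32), CDC6 (0.31) and E2F1 (0.26), and negative for CDC25B (-0.33, 0.00331). CCNE2 changed by -0.09 in HUH7 (adjusted p = 0.666), against -0.94 in PLC/PRF/5, where it fell. CCNE1 changed by 0.32 in HUH7, against -0.24 in PLC/PRF/5 (0.0844), and MCM3 by 0.45, against -0.04 (0.854). CDC25B changed by 0.05 in HUH7 (0.394), against 0.38 in PLC/PRF/5. All 7 with a positive difference belong to the G1 to S, E2F or licensing groups. Without the APOB-Hs4 array of 48 h in PLC/PRF/5, CDC6 (0.21, adjusted p = 0.0577) and E2F1 (0.19, 0.0639) did not pass, and 5 members had a positive and 5 a negative difference.

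Levels themselves differed between the human lines for most members, as for most genes. Over 24 arrays a line, 23 of 44 were higher and 12 lower in HUH7 (84.7% of all genes called, 35.9% higher and 48.8% lower), with a median difference of 0.15 over members and -0.07 over all genes. SKA2 (1.42), CDC25B (1.24), MCM2 (0.99), CENPE (0.87), MCM7 (0.84) and CDC20 (0.73) had the largest positive differences. CDC25B had a lowest, median and highest of 9.67, 9.86 and 10.04 in HUH7, against 8.23, 8.62 and 9.25 in PLC/PRF/5 (SE 0.0377, adjusted p = 5.99e-31). MCM2, of the replicative helicase, ran 11.09, 11.52 and 11.86 in HUH7, against 9.78, 10.49 and 10.84 in PLC/PRF/5. The lines did not overlap for either gene, nor for MCM7, CDC20, CDC25A (0.73), PLK1 (0.69), CENPE, CCNB2 (0.64) and AURKB (0.50). How many of all genes did not overlap between the lines is not given here.

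Lower in HUH7 were CENPA (-0.85), AURKA, the spindle pole kinase (-0.84), CHEK1, the replication checkpoint kinase (-0.71), E2F2 (-0.61), CCNE1 (-0.43) and CDK6 (-0.31). AURKA ran 10.53, 10.64 and 11.02 in HUH7, against 11.17, 11.54 and 11.86 in PLC/PRF/5, without overlap, while AURKB, its relative of the passenger complex, was higher in HUH7. By role, 6 of 8 G2 genes and 6 of 11 spindle genes were higher in HUH7, and 3 of 9 licensing genes were higher and 4 lower. On the mock arrays alone 15 were higher, and without 12 h 7 were lower. The siRNA effects themselves gave 0 calls among members as an interaction with line for each of the 7 siRNAs (0.0% to 0.0112% of all genes called). Unadjusted, 10 members passed with APOB-Hs4, 1 with APOB-Hs3 (3.31% of all genes) and 0 with APOB-Hs1 (2.85%), APOB-Hs2 (3.39%), Apob-Mm1 (1.45%), Apob-Mm2 (4.0%) and RAD18 (2.82%).

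**Figure D4:**
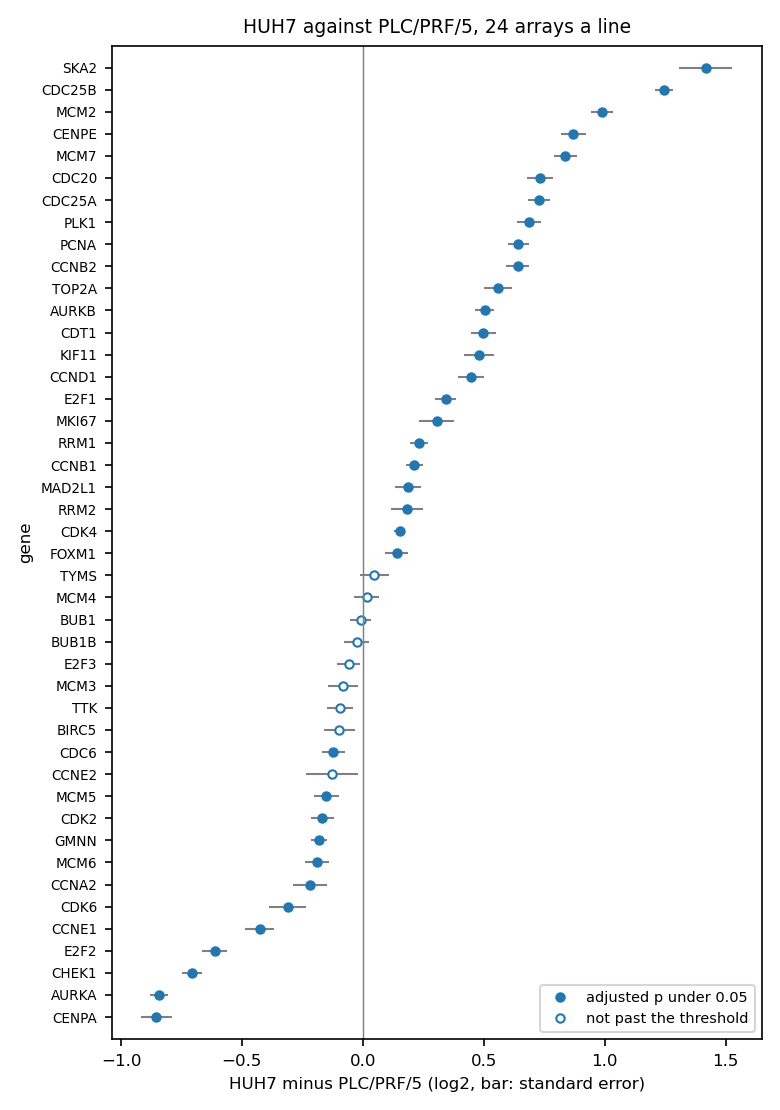
HUH7 minus PLC/PRF/5 (log2) for each of the 44 genes over 24 arrays a line at 6, 12 and 48 h, with the standard error as a bar and filled points past the threshold. SKA2 at 1.42 and CDC25B at 1.24 stand at the top, AURKA at -0.84 and CENPA at -0.85 at the foot.

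In mouse liver, 0 of 42 members were called for any siRNA against the mean of the others (APOB-Hs1 0.328% of all genes, unadjusted 9 members and 13.5%, APOB-Hs3 0.0182%, 8 and 8.18%, and APOB-Hs4 0.21%, 7 and 9.75%). Some of the larger differences are given as values, chosen after they were seen. Gmnn read 6.95, 7.53 and 7.10 in APOB-Hs1 livers, against 7.66 to 7.84 in the other 6, at -0.56 (adjusted p = 0.0773), and its partner Cdt1, the licensing factor, read 5.10, 5.67 and 5.63, against 5.89 to 6.08, at -0.52 (0.0952). Neither gene's APOB-Hs1 livers overlapped the others. Ccnb2 was 0.52 higher in APOB-Hs3 livers (adjusted p = 0.222) and E2f3 at -0.36 in APOB-Hs4 livers (0.132). Larger than the last, with overlapping livers, were Ccnd1 at -0.475 in APOB-Hs4 livers (0.333), and Mcm6 at -0.46 (0.276), Mki67 at -0.41 (0.293) and Ccnb2 at -0.37 (0.15) in APOB-Hs1 livers. The genes called in Hepa1-6 with the same siRNA were at 0.14 (Ccnd1, APOB-Hs1, adjusted p = 0.758), -0.22 (Kif11, APOB-Hs3, 0.751), -0.02 (Rrm2, APOB-Hs4, 0.984) and 0.02 (Cdk6, APOB-Hs4, 0.985) in liver, where the siRNA is compared with other siRNAs and not with mock. Of the 96 companions found on the mouse array 1 was called, Cdkn1a (p21, an inhibitor of cyclin kinases), 1.41 higher in APOB-Hs1 livers (SE 0.22, adjusted p = 0.0287).

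All 42 members were higher in Hepa1-6 than in liver (12 against 9 arrays of the same 3 siRNAs), where 57.3% of all genes were higher and 84.8% were called. The median difference was 4.12 over members and 0.23 over all genes. Culture and tissue, dose, route and time differ along with the system and cannot be told apart. Bub1 had a lowest, median and highest of 9.61, 9.89 and 10.06 in Hepa1-6 and 2.54, 2.62 and 2.79 in liver (7.20, SE 0.0495). Foxm1, the G2 activator, ran 9.57, 10.12 and 10.29 in Hepa1-6 and 2.92, 3.27 and 3.49 in liver (6.81). Mcm6 (6.19), Cdc20 (5.77), Mcm2 (5.75) and Aurka (5.70) completed the 6 largest, and Mki67 was 5.06 higher. Among members the 2 systems overlapped for E2f2 alone, at 5.00 to 5.58 in Hepa1-6 and 4.75 to 5.41 in liver (0.26, adjusted p = 0.00347). The share of all genes without overlap is not given here, so the lack of overlap is not a trait shown for members alone.

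The smallest differences after E2f2 were those of Cdk6 (0.86) and Cdc6 (1.22), and both Ccnd1 (2.81) and Pcna (2.93) were among the smaller ones. Ccnd1 read 10.66, 11.38 and 11.74 (lowest, median, highest) in Hepa1-6 and 7.90, 8.63 and 8.87 in liver. Of the companions 91 of 96 were higher and 5 lower in Hepa1-6, and the kinase inhibitor Cdkn1c was lowest (-3.25). Liver holds other cells besides hepatocytes. The summed intensity of Kupffer cell markers was 103 to 122 in Hepa1-6 and 773 to 1982 in liver, and of endothelial markers 90.5 to 116 in Hepa1-6 and 2102 to 3276 in liver. Erythroid markers summed to 32.1 to 40.7 in Hepa1-6 and 213 to 460 in liver, neutrophil markers to 34.3 to 41.4 and 220 to 429, and lymphocyte markers to 85.7 to 108 and 130 to 157. Hepatocyte markers (6 of 8 listed found) summed to 9942 to 15780 in Hepa1-6 and 66760 to 71920 in liver, stellate cell markers to 14640 to 16200 and 4513 to 6885, and cholangiocyte markers to 382 to 599 and 48.6 to 85.5. Single genes weigh heavily in such sums. Of the stellate markers only Dcn was higher in Hepa1-6 (median 13.9, against 12.28 in liver). Lrat (2.67 against 8.08), Col1a1 (3.92 against 6.71) and Rgs5 (7.79 against 9.16) were lower, and Des was alike (4.69 and 4.71). Of the cholangiocyte markers Sox9 (8.74 against 4.92) and Krt7 (5.08 against 3.54) were higher in Hepa1-6, and Krt19 was lower (3.65 against 4.24). The part of these cell types in the members' difference was not tested.

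**Figure D5:**
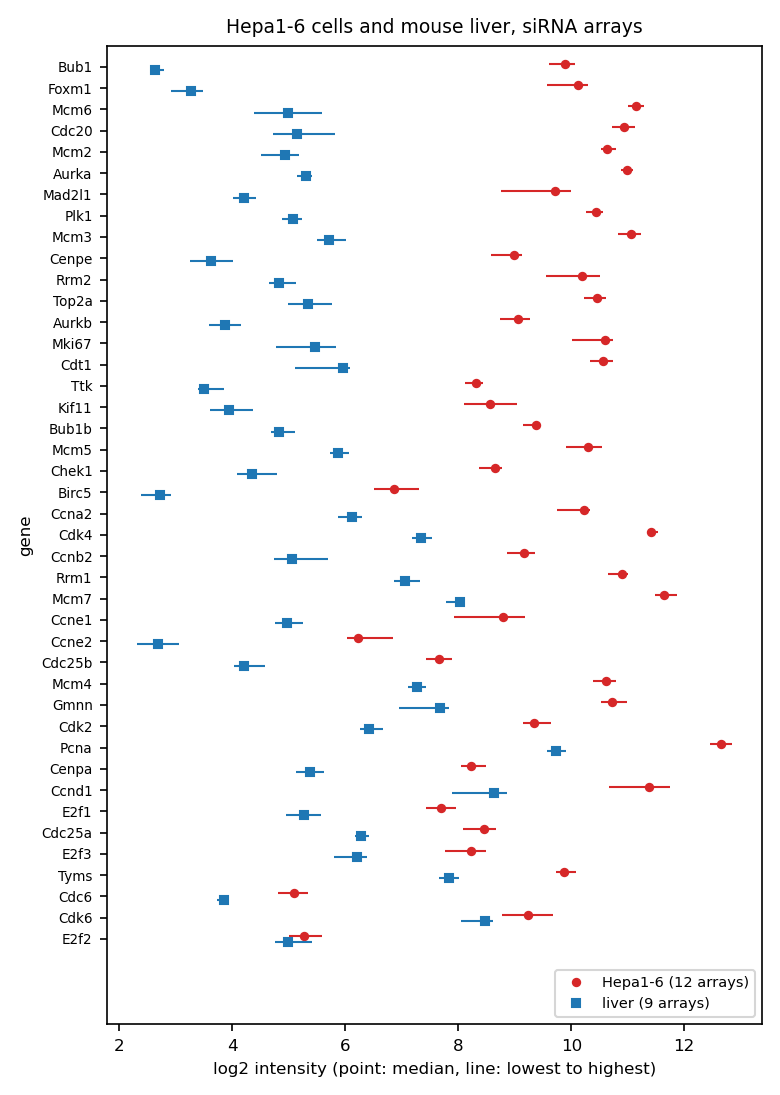
Log2 intensity of the 42 genes in Hepa1-6 (12 siRNA arrays, circles) and liver (9 arrays, squares), as the median with a line from lowest to highest, ordered by the difference. The systems stand apart for each gene but E2f2, from 7.20 for Bub1 to 0.86 for Cdk6.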

How the data were processed

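RNA was measured on human and mouse microarrays. The authors deposited 1 linear intensity per probe set and array, made with RMA per the submitters' processing notes. RMA version and genome build were not given in the sources used here, and the deposited intensities were turned into log2 values with no further normalization, and each gene was read from its brightest probe set by mean over the arrays of its species. Probe sets were named from the platform's annotation (25919 of 43483 human and 30342 of 43681 mouse probe sets had a symbol). Human probe sets whose symbol was not current were renamed by transcript accession (2085) or as an older symbol (2143). No 2 arrays were identical, and the number of arrays limits the precision.

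Models were fitted over all genes with limma 3.58.1 in R 4.3.3: treatment and time per line, the slope of siRNA minus mock per doubling of time, HUH7 minus PLC/PRF/5 over 6, 12 and 48 h with interactions, each liver siRNA minus the mean of the others, and Hepa1-6 minus liver. P-values were adjusted by Benjamini-Hochberg within a contrast. Only the fit of siRNA minus mock was tested on simulated data, for APOB-Hs1 in each cell line. The genes named were MKI67, CCND1, CCNB1, PCNA, E2F1, E2F3, CDC25A and SKA2 throughout, up to 4 called members per siRNA and system, up to 6 in each direction over time and between systems, by size of difference, and up to 3 called genes per companion list and contrast. The members and lists were chosen with earlier results of these data known. Liver numbers did not pair the samples: correlations of deviations were -0.144 to 0.188 for the same number (9 pairs) and -0.154 to 0.204 for different numbers (18 pairs). The alternatives tried were averaging every probe set of a gene, quantile normalization, leaving out genes below the median level, called dim, eBayes with trend and robust settings, leaving out times, livers or single arrays, leaving out mock, and the other siRNAs in place of mock. Leaving out the single arrays was chosen after seeing the data.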

Additional observations from a re-analysis of the deposited data

Results flagged for a closer look

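Within a treatment group or time of 4 to 8 arrays, 16 values stood apart from the rest by Dixon's test, of 91 groups tested. These groups read the same arrays for different genes or for the members' mean, and the genes were chosen with earlier results known. The groups are therefore not independent, and the count cannot be set against a chance rate. SKA2 with APOB-Hs2 was the lowest array at every time in both human lines. In HUH7 it read 10.78 at 6 h (next array 10.98), 9.503 at 12 h (10.53), 9.03 at 24 h (10.72) and 8.845 at 48 h (10.85). In PLC/PRF/5 it read 8.92 at 6 h (9.519), 7.507 at 12 h (9.432) and 6.346 at 48 h (9.225).

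The APOB-Hs4 array of 48 h in PLC/PRF/5 was the lowest for the mean of the 44 members (9.182, next 9.812), CDC25A (8.451, next 9.019), PCNA (11.03, next 11.63) and CCNB1 (10.72, next 11.34). At 6 h in that line MKI67 was lowest with APOB-Hs4 (8.669, next 8.906), while the mean of the members (9.891, next 9.856) and E2F1 (7.936, next 7.806) were highest with APOB-Hs1. In Hepa1-6 with APOB-Hs1, Ccnd1 was lowest at 12 h (10.66, next 11.38) and Pcna highest at 6 h (12.75, next 12.51).

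The change from 6 to 48 h differed between HUH7 and PLC/PRF/5 in limma's interaction for CCNE2 (0.8565), CCNE1 (0.559), MCM3 (0.4919), E2F2 (0.3705), MCM5 (0.3235), CDC6 (0.3082), E2F1 (0.2598) and CDC25B (-0.3317).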

How the results depend on the processing

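Of 149 results for single genes, 88 kept direction and call under every alternative run, 59 lost the call under at least 1 and 2 changed sign, and 122 kept the call when alternatives with fewer arrays are left aside. The changes of sign were Cenpe from 6 to 48 h in Hepa1-6 (0.0352, adjusted p = 0.870, over the mean of its probe sets) and the MKI67 slope with APOB-Hs4 in PLC/PRF/5 (0.1574 without that siRNA's 48 h array and 0.1568 without the 48 h arrays of APOB-Hs2 and APOB-Hs4). The causes of the changes below were not tested, except that leaving out arrays leaves fewer of them.

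Against mock in HUH7, 13 higher calls became 21 without dim genes and 0 to 12 on leaving out a time, and 2 lower calls became 0 to 6 on leaving out a time and 13 against the other siRNAs. In Hepa1-6, 0 higher calls became 1 over the mean of probe sets, 3 without dim genes, 2 with trend and robust and 3 against the other siRNAs, and 4 lower calls became 1 to 4 on leaving out a time. In PLC/PRF/5, 0 higher calls became 2 against the other siRNAs. There 1 lower call became 2 with quantile normalization, without dim genes, with trend and robust, against the other siRNAs, and without the APOB-Hs4 or both the APOB-Hs2 and APOB-Hs4 arrays of 48 h, and 0 to 2 on leaving out a time (24 unadjusted without 12 h and 11 without 48 h).

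For slopes in HUH7, 1 higher call became 3 with quantile normalization, 3 without dim genes, 4 with trend and robust, 2 without the APOB-Hs1 array of 12 h, 5 against the other siRNAs and 0 on leaving out any time (3 to 20 unadjusted). The 1 lower call became 3, 8, 8, 3 and 11 under the same alternatives in that order, leaving out times aside. In Hepa1-6, 0 lower slopes became 1 with trend and robust. With APOB-Hs4 in PLC/PRF/5, 32 lower slopes became 0 without the APOB-Hs4 or both 48 h arrays (0 unadjusted in each). The 1 higher slope became 0 with quantile normalization or the mean of probe sets (1 unadjusted in each) and without those arrays (1 and 2 unadjusted), and 2 against the other siRNAs. With the other siRNAs there, 2 higher slopes became 1 with quantile normalization or without both 48 h arrays, 4 without dim genes, 5 with trend and robust and 11 against the other siRNAs, and 8 lower became 5 over the mean of probe sets, 13 without dim genes and 14 with trend and robust.

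Over time in HUH7, 2 lower from 6 to 48 h became 1 over the mean of probe sets or without mock. In PLC/PRF/5 from 6 to 48 h, 5 higher became 3 with quantile normalization, 2 without mock, and 19 and 20 without the APOB-Hs4 or both 48 h arrays, and 2 lower became 4 over the mean of probe sets. From 6 to 12 h, 5 higher became 2 with quantile normalization, 3 without mock, and 14 and 15 without those arrays, and from 12 to 48 h 1 higher became 7 and 6. In Hepa1-6 from 6 to 48 h, 4 higher became 1 without mock, and 6 lower became 11 without dim genes and 10 with trend and robust. From 6 to 12 h, 1 lower became 2 without dim genes and 0 without mock (3 unadjusted), from 12 to 24 h 0 higher became 1 with trend and robust, and from 24 to 48 h 2 lower became 1 with quantile normalization, 8 without dim genes, 6 with trend and robust and 0 without mock (12 unadjusted).

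Between HUH7 and PLC/PRF/5, 23 higher became 15 on mock arrays alone and 12 lower became 7 to 17 on leaving out a time, and for the change from 6 to 48 h 1 lower became 5 without the APOB-Hs4 array. In liver, 0 higher calls became 1 without APOB-Hs4 liver 1, and 0 lower became 1 with trend and robust and 2 without APOB-Hs1 liver 2 or without APOB-Hs4 liver 1. With the replicate number as a block, a number that did not pair the livers, liver calls were 0 higher and 0 lower (13 and 12 unadjusted).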

Other observations

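Among the companion genes, RBL2, a pocket protein that represses E2F targets in quiescent cells, was below mock with the RAD18 siRNA in HUH7 (-0.66, adjusted p = 4.57e-06, limma) and PLC/PRF/5 (-0.57, 0.0334). It was also below mock with APOB-Hs1 in HUH7 (-0.45, 0.000449), as was Rbl2 in Hepa1-6 (-0.69, 0.000915). With APOB-Hs2, E2F5, a repressor E2F, was lower in HUH7 (-0.97, 0.000878) and PLC/PRF/5 (-1.41, 0.0166), and GINS1, a subunit of the replicative helicase, in HUH7 (-0.55, 0.0088) and PLC/PRF/5 (-1.20, 0.0321). ORC2, of the origin recognition complex, was lower with APOB-Hs3 in HUH7 (-0.52, 0.000604). With APOB-Hs4, CDKN1A was lower in HUH7 (-0.51, 0.00716) and Cdkn1a higher in Hepa1-6 (0.66, 0.0438), and the difference between the systems was not tested.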
